A study of Homo sapiens with 9 samples.

Results

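PR2 and PR1 are ponatinib-resistant derivatives of LC-2/ad, an established cell line from a human lung adenocarcinoma with a fusion of CCDC6 to RET. Both were labelled as cultured in 200 nM ponatinib, which inhibits RET among several other kinases, so the labelled drug and dose were the same on both sides of the comparison. RNA sequencing gave 3 libraries of PR2 and 3 of PR1, lettered A, B and C, and these 6 of the 9 libraries of the series were compared here. The other 3 came from parental LC-2/ad cells, for which no drug is stated. Neither the labels nor the design text say how PR2 and PR1 were derived, whether each is a single clone, or what the letters mark, be it separate cultures or not. The p-values therefore reflect the spread among these libraries alone, which may be technical. Differences are given as PR2 minus PR1 on the log2(FPKM + 1) scale, where FPKM is a fragment count scaled to transcript length and library size. On this scale the change of a low gene comes out too small.

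RET is a receptor tyrosine kinase. The CCDC6-RET fusion joins its kinase domain to a partner that lets it dimerise without ligand, which keeps the RAS, RAF, MEK and ERK cascade active. ERK in turn induces a set of immediate targets, among them the DUSP, SPRY and SPRED genes, whose proteins feed back to restrain the cascade. Lung adenocarcinoma cells usually keep traits of the airway and alveolar epithelium, such as mucins, surfactant proteins and the transcription factors that drive them.

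All 8 epithelial markers (EPCAM, CDH1, KRT7, KRT8, KRT18, KRT19, CLDN4 and CLDN7) were expressed, with summed levels of 7347 to 9417 FPKM in PR2 and 5246 to 7530 FPKM in PR1. Few markers of other cell types passed the filter used below, 3 of 12 fibroblast, 1 of 11 blood, 1 of 8 endothelial and 2 of 14 neuroendocrine ones, and the blood marker PTPRC reached 0.0196 FPKM at most in the PR2 libraries and 0.0150 FPKM in the PR1 libraries. Each of the 9 libraries had between 11263 and 11629 rows at 1 FPKM or more. The number of reads is not given in the sources used here. Steps of single fragments among low rows gave relative depths of 0.773 to 1.02 against PR1 A. Across genes, PR2 B and C correlated at 0.985, and PR2 A correlated with them at 0.961 and 0.965.

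Nearly 1 in 5 genes differed between the 2 resistant lines. Of 12011 rows tested (a filter that asks for 1 FPKM in 3 or more of the 9 libraries), 2395 passed an adjusted p of 0.05 in limma, which is 19.9%. Of these, 1324 rows (11%) were higher and 1071 rows (8.92%) were lower in PR2. At a difference of 2-fold or more, 898 rows (7.48%) passed, 493 of them (4.1%) higher and 405 (3.37%) lower. Every one of the 2395 called rows had the same sign in all 3 lettered pairs, and in 889 of the 898 rows called at 2-fold the PR2 and PR1 libraries did not overlap. Among all tested rows 4643 (38.7%) did not overlap, and in all 3 pairs 4020 were higher and 3886 lower in PR2. A call itself favours rows of 1 sign, so the signs add no separate support. With the letters taken as pairs, by a block in the limma fit, 3789 rows passed (31.5%), 2053 higher (17.1%) and 1736 lower (14.5%). At 2-fold 958 passed. Without PR2 B, PR2 C or PR1 B the count of called rows was 1464, 1420 or 1592.

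**Figure D1:**
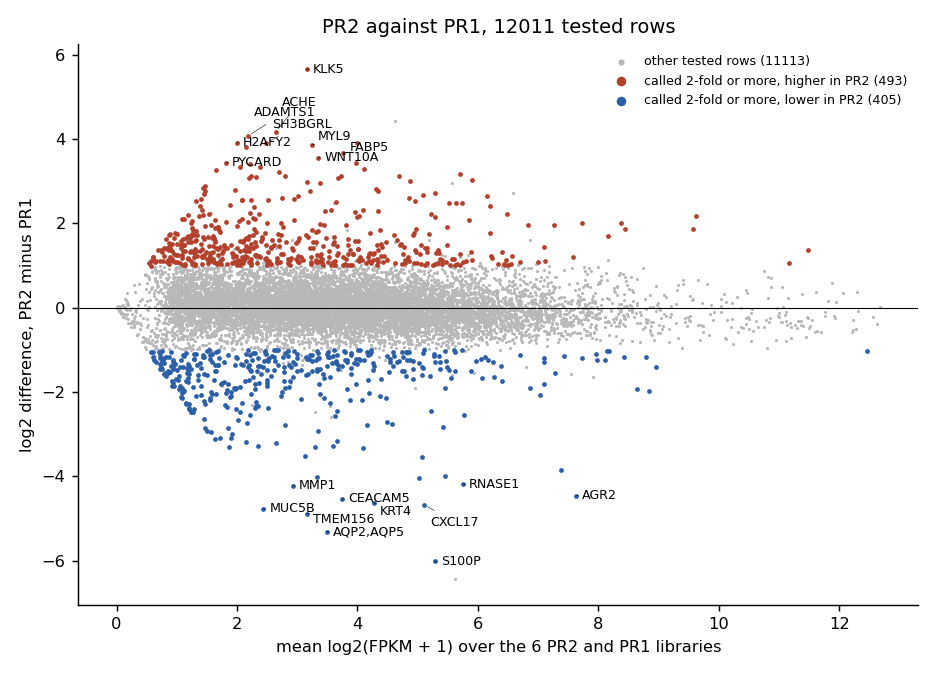
Log2 difference (PR2 minus PR1, vertical axis) against the mean log2(FPKM + 1) of the 6 libraries (horizontal axis), with 1 point per tested row. The 493 rows called at 2-fold or more higher in PR2 are red, the 405 lower are blue, the other rows are grey, and the labelled genes run from PYCARD (3.44) up to KLK5 (5.65) and from RNASE1 (−4.19) down to S100P (−6.02).

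The 2-fold differences were spread over all levels of expression. They made up 256 of 3058 rows (8.37%) where the higher group averaged under 5 FPKM, 334 of 4547 rows (7.35%) between 5 and 20 FPKM, 233 of 3406 rows (6.84%) between 20 and 100 FPKM and 75 of 1000 rows (7.5%) above 100 FPKM. Within single pairs, 510 rows were at least 2-fold higher and 571 at least 2-fold lower in PR2 for the A libraries, 649 and 493 for the B libraries, and 753 and 464 for the C libraries. In all 3 pairs together, 297 rows were at least 2-fold higher and 261 at least 2-fold lower.

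The largest difference toward PR2 was in KLK5, a secreted serine protease of the kallikrein family. It stood at 44.8, 83.0 and 64.8 FPKM in PR2, against 0.247, 0.273 and 0.255 FPKM in PR1, a log2 difference of 5.65 ± 0.44 (SE) (limma adjusted p = 3.3e-05). The PR1 libraries were all below the parental ones, which had 5.67, 1.26 and 0.602 FPKM. ACHE, the acetylcholine-hydrolysing enzyme, had 21.2, 37.0 and 21.5 FPKM in PR2, against 0.453, 0.428 and 0.548 FPKM in PR1 (difference 4.18 ± 0.23 (SE), limma adjusted p = 7.2e-06). ADAMTS1, a secreted metalloprotease that cleaves proteoglycans, had 25.1, 13.7 and 15.9 FPKM in PR2, against 0.200, 0.0502 and 0.0770 FPKM in PR1 (difference 4.07 ± 0.25 (SE), limma adjusted p = 1.1e-05). These genes were chosen among rows whose PR2 and PR1 libraries do not overlap, so their lack of overlap came with the choice.

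H2AFY2, which encodes the histone variant macroH2A2, showed another order of the 3 cell populations. It had 12.963, 16.968 and 13.9 FPKM in PR2, against 0.0147, 0.0194 and 0.0572 FPKM in PR1, and 18.4, 22.2 and 23.7 FPKM in parental cells (PR2 minus PR1 3.91 ± 0.15 (SE), limma adjusted p = 1.8e-06). PR1 was thus the population with almost no H2AFY2 RNA. PR1 was also the lowest for FABP5, a fatty acid carrier, with 81.0, 34.6 and 37.9 FPKM in PR2, against 6.66, 1.44 and 1.99 FPKM in PR1, and 45.1, 38.7 and 25.3 FPKM in parental cells (PR2 minus PR1 3.66). PYCARD, the adaptor of inflammasomes, was at 7.33, 14.5 and 11.3 FPKM in PR2, against 0.102, 0 and 0.115 FPKM in PR1 (difference 3.44), with 3.19, 4.36 and 2.01 FPKM in parental cells. SH3BGRL, a small protein of the thioredoxin fold, was at 12.4, 27.4 and 26.2 FPKM in PR2, against 0.274, 0.497 and 0.567 FPKM in PR1 (difference 3.92). The limma adjusted p-values of FABP5, PYCARD and SH3BGRL were 0.00047, 2.5e-05 and 1.7e-05.

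MYL9, a myosin regulatory light chain, and WNT10A, a secreted WNT ligand, were also among the leading genes. MYL9 had 43.1, 28.8 and 34.6 FPKM in PR2, against 4.04, 0.652 and 0.855 FPKM in PR1 (difference 3.86 ± 0.61 (SE), limma adjusted p = 0.00204). The PR1 A library of MYL9 was several times above PR1 B and C, and below every PR2 library, as the rule for these genes asked. WNT10A had 33.4, 42.6 and 27.5 FPKM in PR2, against 2.53, 2.92 and 0.895 FPKM in PR1 (difference 3.56, limma adjusted p = 6.0e-05).

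**Figure D2:**
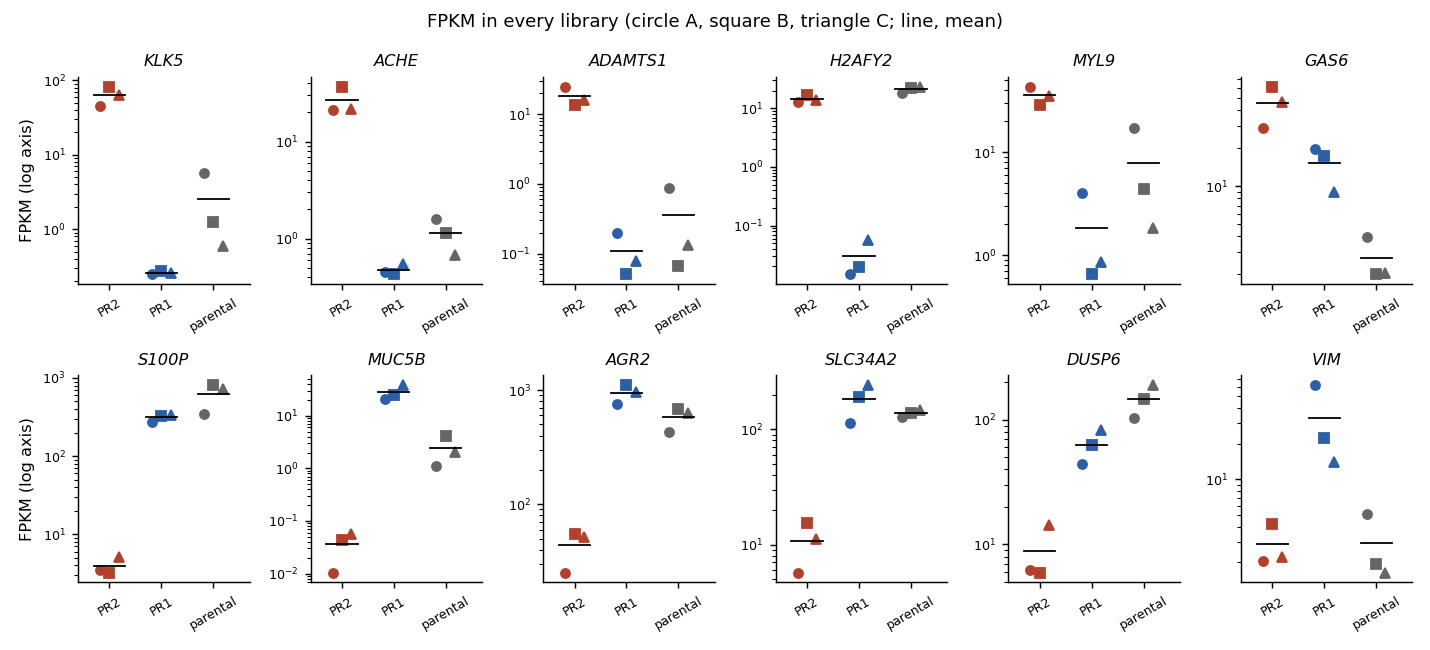
FPKM on a log axis in each library of PR2 (left), PR1 (middle) and parental cells (right) for 12 genes, with circles for A, squares for B, triangles for C and a line at the group mean. The PR2 libraries lie above all PR1 libraries in the first 6 panels and below them in the last 6, for example 44.8 to 83.0 against 0.247 to 0.273 FPKM for KLK5 and 3.22 to 5.06 against 274 to 340.0 FPKM for S100P.

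On the lower side S100P, a small calcium-binding protein of secretory and tumour epithelium, led at the pseudocount of 1. It stood at 3.46, 3.22 and 5.06 FPKM in PR2, against 274, 328 and 340.0 FPKM in PR1, and 343, 816 and 729 FPKM in parental cells (PR2 minus PR1 −6.02 ± 0.30 (SE), limma adjusted p = 5.2e-06). The order changed with the setting. Among the alternatives MUC5B reached −7.66, while S100P went no further than −6.31. The combined locus AQP2,AQP5, which holds the water channel genes of kidney and of secretory glands and whose value cannot be split between them, had 0.734, 0.862 and 0.754 FPKM in PR2, against 77.3, 82.8 and 53.9 FPKM in PR1 (difference −5.32, limma adjusted p = 1.0e-05). TMEM156, a membrane protein gene, had 0.526, 0.585 and 0.835 FPKM in PR2, against 26.7, 66.3 and 60.4 FPKM in PR1 (difference −4.88, limma adjusted p = 1.1e-05). The keratin KRT4, typical of non-keratinising stratified epithelium, had 2.52, 3.74 and 2.50 FPKM in PR2, against 111, 90.0 and 85.2 FPKM in PR1 (difference −4.63, limma adjusted p = 0.000658). In all 4 rows each PR2 library was also below every parental library.

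MMP1, the interstitial collagenase, had 0.509, 0.887 and 0.890 FPKM in PR2, against 48.8, 19.7 and 33.3 FPKM in PR1 (difference −4.23, limma adjusted p = 0.000848). RNASE1, a secreted ribonuclease, had 5.54, 14.9 and 18.5 FPKM in PR2, against 102, 399.6 and 295 FPKM in PR1 (difference −4.19, limma adjusted p = 0.000787). PR2 A was the lowest PR2 library for both. The other 4 of the 10 leading lower genes, MUC5B, CXCL17, CEACAM5 and AGR2, are airway secretory genes described with that list.

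Among abundant transcripts the classical MHC genes stood out. The combined locus HLA-B,HLA-C had 1318, 1879 and 1893 FPKM in PR2, against 353, 363 and 393 FPKM in PR1, and 579, 609 and 723 FPKM in parental cells (PR2 minus PR1 2.18 ± 0.18 (SE), limma adjusted p = 5.9e-05). ACTG1, cytoplasmic gamma-actin, had 4253, 4712 and 4847 FPKM in PR2, against 2056, 1629 and 1669 FPKM in PR1 (difference 1.37, limma adjusted p = 0.000642). KRT7, a keratin of simple epithelium, had 2973, 3548 and 3462 FPKM in PR2, against 2063, 1590.4 and 1205 FPKM in PR1 (difference 1.07, limma adjusted p = 0.00964). TGFBI, a matrix protein induced by TGF-beta, had 594, 664 and 750.2 FPKM in PR2, against 248, 156 and 155 FPKM in PR1 (difference 1.87, limma adjusted p = 0.00793). ACTG1 shares coding sequence with ACTB and several pseudogenes, so its level is uncertain. The 5th abundant higher gene, the protease inhibitor CST6, was higher by 1.87 (limma adjusted p = 0.0179), a call lost without PR2 B, PR2 C, PR1 B or PR1 C, with a limma adjusted p no higher than 0.070.

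Among abundant lower genes, AGR2 kept its call under every alternative tried. NPC2, a lysosomal cholesterol carrier, had 88.7, 344 and 394 FPKM in PR2, against 702, 1238 and 844 FPKM in PR1 (difference −1.97, limma adjusted p = 0.02), and without PR2 A the difference was −1.29. Its call was lost without PR1 B, without PR1 C and with no filter on low values (limma adjusted p = 0.068, 0.054 and 0.051). RPS2, a ribosomal protein with many pseudogene copies and therefore an uncertain level, had 3896, 4072 and 3888 FPKM in PR2, against 9749, 7661 and 6887 FPKM in PR1 (difference −1.02, limma adjusted p = 0.0102, and 0.087 with no filter on low values). CEACAM6 and the combined locus IFITM1,IFITM2 were the other 2, with differences of −1.92 and −1.42 (limma adjusted p = 0.0148 and 0.025). The CEACAM6 call was lost without PR1 B or PR1 C (limma adjusted p = 0.053 and 0.057), and that of IFITM1,IFITM2 without PR1 A or PR1 B (limma adjusted p = 0.051 and 0.085).

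The receptor kinases, through which resistance to a RET inhibitor is often sought, differed in both directions. Of 24 tested members of the list, 3 were higher and 4 lower in PR2, against 11% and 8.92% of all tested rows. With the letter as a block 6 were higher, and without PR2 A, the 3 A libraries or parental A the number higher was 6, 6 and 5. Without PR2 A, PR2 B, PR1 B or PR1 C, 2 were lower. RET itself had 8.89, 8.95 and 7.66 FPKM in PR2, against 17.1, 15.9 and 16.8 FPKM in PR1, and 13.1, 14.8 and 15.7 FPKM in parental cells (PR2 minus PR1 −0.89 ± 0.13 (SE), limma adjusted p = 0.00155). The value covers every transcript assigned to RET, and CCDC6, the fusion partner, did not pass (−0.23, limma adjusted p = 0.427).

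ERBB2, the ligandless member of the EGFR family, had 90.9, 125 and 110.2 FPKM in PR2, against 45.7, 63.0 and 61.2 FPKM in PR1 (difference 0.93 ± 0.18 (SE), limma adjusted p = 0.006), and lies on chromosome 17, whose genes are described further on. ERBB3, its usual partner, had 15.4, 22.1 and 26.2 FPKM in PR2, against 27.2, 39.9 and 33.6 FPKM in PR1 (difference −0.65, limma adjusted p = 0.0498). The ERBB3 call was lost under 13 of 19 alternatives, with a limma adjusted p no higher than 0.16. FGFR3 was lower, with 3.66, 4.48 and 3.51 FPKM in PR2, against 8.61, 14.5 and 10.474 FPKM in PR1 (difference −1.30, limma adjusted p = 0.011). KIT and FGFR4 were higher at low levels, by 0.79 and 0.72 (limma adjusted p = 0.00441 and 0.00634).

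AXL, the receptor for GAS6, had 106, 68.1 and 70.5 FPKM in PR2, against 53.8, 34.7 and 27.9 FPKM in PR1. The A libraries were the highest of both lines, and each PR2 library was above its PR1 partner, with pair differences of 0.95 to 1.31. The difference of 1.08 ± 0.37 (SE) did not pass over the 9 libraries (limma adjusted p = 0.0668) and passed under 7 of 19 alternatives, among them the block (limma adjusted p = 0.00251). EGFR had 27.8, 19.1 and 23.3 FPKM in PR2, against 17.1, 14.5 and 15.5 FPKM in PR1 (difference 0.53, limma adjusted p = 0.0544, and 0.00921 with the block) and passed under 5 of 19. MET, which had 89.7, 75.8 and 104 FPKM in PR2 and 97.9, 108 and 124 FPKM in PR1, and FGFR1 did not pass (limma adjusted p = 0.345 and 0.336).

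Ligands of these receptors were more often higher than lower. Of 24 tested ligand genes 6 were higher and 2 lower in PR2, and with the block 11 were higher and 4 lower. Of all tested rows 11% were higher and 8.92% lower, and with the block 17.1% and 14.5%. Their median difference was 0.44, against 0.0038 over all tested rows. GAS6 had 28.9, 61.6 and 46.7 FPKM in PR2, against 19.8, 17.3 and 8.92 FPKM in PR1, and 3.99, 2.01 and 2.07 FPKM in parental cells (PR2 minus PR1 1.52 ± 0.34 (SE), limma adjusted p = 0.0123). The A libraries of GAS6 were the closest, and none overlapped. PDGFB and PDGFA, the chains of platelet-derived growth factor, were higher by 1.80 and 1.29 (limma adjusted p = 0.00448 and 0.00298), and EGF by 0.96 (limma adjusted p = 0.00167). The 2 lower ligands were ARTN, a ligand that signals through RET, and TGFA, a ligand of EGFR, at −0.75 and −0.61 (limma adjusted p = 0.0122 and 0.0465). Without PR2 C neither was called. The TGFA call was lost under 10 of 19 alternatives, with a limma adjusted p no higher than 0.17. These included leaving out PR2 B, parental A, parental B or any single PR1 library.

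The cascade below the receptors held called genes at a share near that of all rows. Of 25 tested RAS, RAF, MEK and ERK genes and regulators, 3 were higher and 1 lower (16%, against 19.9% of all tested rows). GRB2, the adaptor that couples receptors to RAS, had 68.9, 65.3 and 64.1 FPKM in PR2, against 35.7, 30.1 and 33.9 FPKM in PR1 (difference 0.97, limma adjusted p = 0.001), and DAB2IP, a RAS GTPase-activating protein, was higher by 0.77 (limma adjusted p = 0.00628). NF1, another such protein, was higher by 0.62 (limma adjusted p = 0.0417). NF1 lost its call under 9 alternatives, with a limma adjusted p no higher than 0.17. With the block 5 members of the list were higher and 3 lower, against 17.1% and 14.5% of all tested rows. GRB2 and NF1 lie on chromosome 17. HRAS had 65.7, 31.0 and 27.8 FPKM in PR2, against 90.1, 49.7 and 57.0 FPKM in PR1 (difference −0.71, limma adjusted p = 0.148, and 0.0218 with the block), and its difference was −1.09 without PR2 A and −0.46 without PR1 A.

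Of 24 tested output genes of the ERK pathway, 13 were lower and 2 higher in PR2 and 9 did not pass, with a median difference of −0.84. DUSP6, the phosphatase that inactivates ERK, had 6.29, 5.94 and 14.4 FPKM in PR2, against 44.5, 62.5 and 82.7 FPKM in PR1, and 104, 148 and 191 FPKM in parental cells (PR2 minus PR1 −2.76 ± 0.35 (SE), limma adjusted p = 0.00055). Each PR2 library was below every PR1 library, and each PR1 library below every parental one. ETV4, a transcription factor of the PEA3 family, had 4.76, 3.33 and 4.24 FPKM in PR2, against 24.8, 38.2 and 25.8 FPKM in PR1 (difference −2.56, limma adjusted p = 0.000484). Its relative ETV5 had 1.92, 0.882 and 1.10 FPKM in PR2, against 9.42, 10.3 and 11.8 FPKM in PR1 (difference −2.34, limma adjusted p = 0.000423). For both genes the PR2 libraries were several times below the lowest PR1 library. SPRY4, a Sprouty inhibitor of receptor signalling, had 0.853, 0.484 and 0.848 FPKM in PR2, against 7.67, 7.60 and 9.14 FPKM in PR1 (difference −2.41, limma adjusted p = 2.9e-05).

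Among the further lower members, named after their values were seen, were ETV1 (−1.86), SPRY1 (−1.45), DUSP4 (−1.19), DUSP7 (−1.07), PHLDA1 (−1.04) and SPRY2 (−0.86). SPRED1 was listed at 0 throughout PR2, and PR1 had 0.654, 2.35 and 1.42 FPKM. Other members of the list did not pass, among them MYC (−0.19), CCND1 (−0.17) and FOSL1 (0.32). The 2 higher members were PLAUR, the urokinase receptor, and SPHK1, sphingosine kinase, at 0.76 and 0.85 (limma adjusted p = 0.0456 and 0.0344), and neither was called without PR2 A, PR2 B, PR2 C, PR1 B or PR1 C. The number lower was 6 without PR2 B, 8 without PR1 B and 7 without PR1 C, and DUSP6, ETV4, ETV5 and SPRY4 kept their call in each case.

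Lineage genes of the lung were mostly lower in PR2. Of 14 tested alveolar and lung lineage genes, 9 were lower and 1 was higher in PR2, with a median of −1.12. SLC34A2, the phosphate transporter of alveolar type II cells, had 5.70, 15.3 and 11.1 FPKM in PR2, against 113, 190.2 and 243 FPKM in PR1, and 128, 138 and 148 FPKM in parental cells (PR2 minus PR1 −3.99 ± 0.34 (SE), limma adjusted p = 5.9e-05). NAPSA, a protease that processes surfactant protein B, had 4.42, 17.5 and 10.8 FPKM in PR2, against 41.3, 44.3 and 52.8 FPKM in PR1 (difference −2.15, limma adjusted p = 0.00373). SFTPB, surfactant protein B itself, was already low in PR1, with 0.0207, 0.0352 and 0.0204 FPKM in PR2, against 3.46, 6.01 and 4.9973 FPKM in PR1, and 54.3, 144 and 40.6 FPKM in parental cells (PR2 minus PR1 −2.48, limma adjusted p = 0.00174). CEBPA, a transcription factor of the distal lung, had 2.11, 1.94 and 1.33 FPKM in PR2, against 8.04, 9.74 and 8.02 FPKM in PR1 (difference −1.79, limma adjusted p = 0.000245). Named after its value was seen, NKX2-1, the master factor of lung epithelium, had 64.3, 82.5 and 74.3 FPKM in PR2, against 105, 163 and 109 FPKM in PR1 (difference −0.74, limma adjusted p = 0.0377). Parental cells had 77.9, 69.1 and 51.9 FPKM of NKX2-1. Against them PR1 was higher by 0.90 and PR2 by 0.16 (limma adjusted p = 0.0195 and 0.631). The member called higher was GATA6 (0.54, limma adjusted p = 0.0341), a call lost without PR2 B, PR2 C, PR1 B or PR1 C. In bulk RNA, fewer cells of a kind and less RNA per cell cannot be told apart.

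Of 24 tested airway secretory genes 10 were lower and 1 was higher in PR2, with a median of −1.35. The gel-forming mucin MUC5B had 0.0104, 0.0437 and 0.0561 FPKM in PR2, against 20.9, 25.2 and 38.7 FPKM in PR1, and 1.09, 4.10 and 2.07 FPKM in parental cells (PR2 minus PR1 −4.77 ± 0.31 (SE), limma adjusted p = 1.2e-05). AGR2, a disulfide isomerase needed for mucin folding, had 25.1, 54.8 and 51.1 FPKM in PR2, against 759.8, 1111 and 959 FPKM in PR1 (difference −4.46 ± 0.30 (SE), limma adjusted p = 1.6e-05). CEACAM5, the carcinoembryonic antigen, had 1.29, 1.58 and 2.64 FPKM in PR2, against 39.8, 81.2 and 79.5 FPKM in PR1 (difference −4.54, limma adjusted p = 2.3e-05). CXCL17, a mucosal chemokine, had 0.467, 12.2 and 15.5 FPKM in PR2, against 82.7, 308 and 205 FPKM in PR1 (difference −4.68 ± 0.81 (SE), limma adjusted p = 0.00341). The A library was the lowest of CXCL17 in both lines. SPDEF, the transcription factor of goblet cells, named after its values were seen, had 1.04, 1.49 and 2.09 FPKM in PR2, against 54.9, 33.3 and 33.3 FPKM in PR1 (difference −4.01, limma adjusted p = 2.3e-05). Not all secretory genes moved so. The membrane mucins MUC4 (1.02) and MUC16 (0.57) passed only with the block (limma adjusted p = 0.0396 and 0.0393, against 0.116 and 0.171 without it), MUC13 (0.60) did not pass, and CREB3L1, an endoplasmic reticulum stress factor, was higher by 2.02 (limma adjusted p = 0.0297). The CREB3L1 call was lost without PR2 B, PR2 C, PR1 A or PR1 C (limma adjusted p no higher than 0.0995). With the block 4 members were higher, and without PR2 A 3 were. Without PR1 B or PR1 C, 6 members were lower.

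SOX2, a transcription factor of airway progenitors, had 1.60, 2.6011 and 2.18 FPKM in PR2, against 19.4, 39.1 and 34.8 FPKM in PR1, and 33.3, 51.4 and 35.7 FPKM in parental cells (PR2 minus PR1 −3.31 ± 0.27 (SE), limma adjusted p = 4.3e-05). The S100 genes, a family of calcium-binding proteins, were lower in 5 of 13 tested cases and higher in none by limma, and with the block 8 were lower. At an unadjusted p of 0.05, which at least 19.9% of all tested rows pass, 7 were lower and 0 higher. Besides S100P they included S100A4, a protein linked to motility, with 29.5, 71.6 and 37.0 FPKM in PR2, against 709.9, 898 and 399 FPKM in PR1 (difference −3.86 ± 0.51 (SE), limma adjusted p = 0.000795), and S100A14, with 69.9, 90.5 and 103 FPKM in PR2, against 231, 224 and 189.8 FPKM in PR1 (difference −1.30, limma adjusted p = 0.00128). S100A10 and S100A11 had differences of 0.04 and 0.04 and did not pass.

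**Figure D3:**
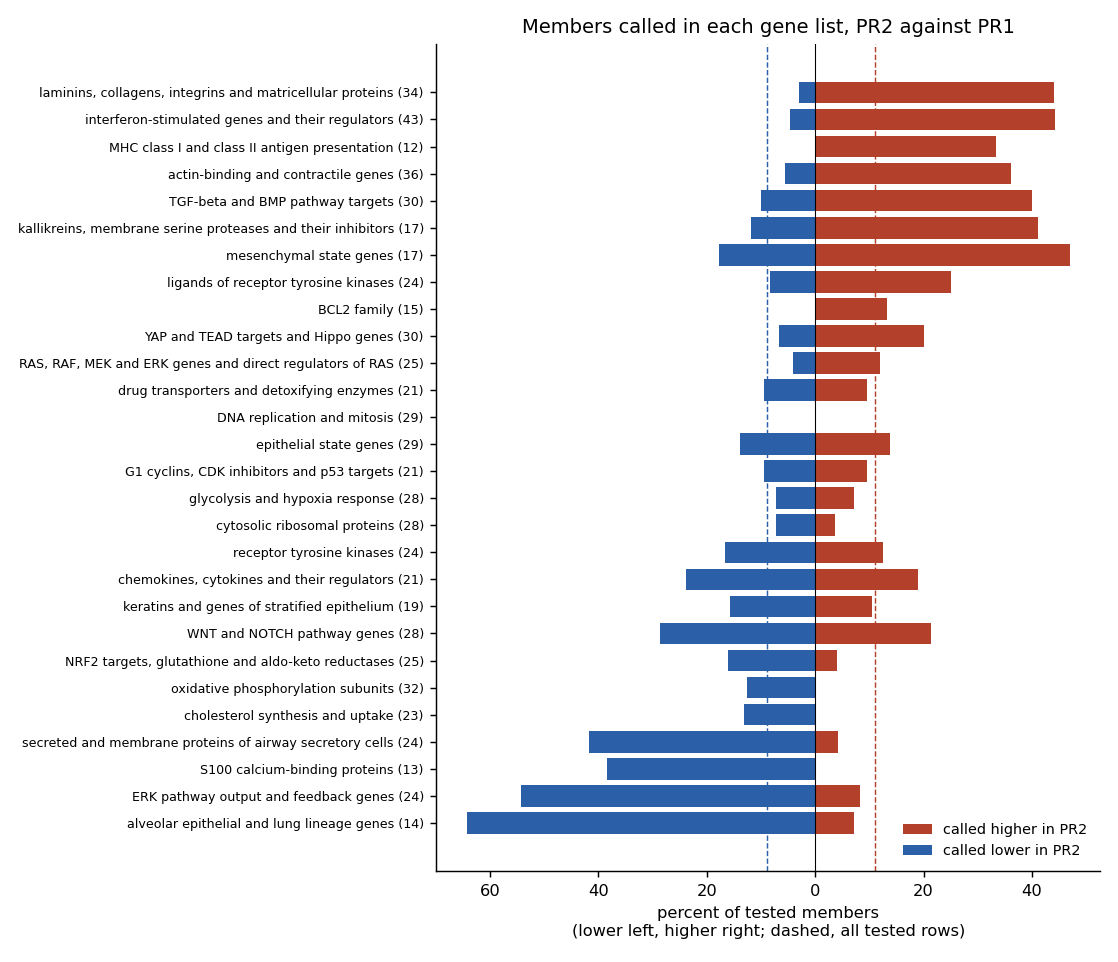
Percent of the tested members of each gene list that were called lower (blue, to the left) and higher (red, to the right) in PR2 against PR1, with the number of tested members in brackets and dashed lines at the 8.92% and 11% of all tested rows. The alveolar (9 of 14) and ERK output (13 of 24) lists reach farthest to the lower side, and the mesenchymal (8 of 17), interferon (19 of 43) and matrix (15 of 34) lists farthest to the higher side.

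Mesenchymal genes did not move as 1 group. Of 17 tested members 8 were higher and 3 lower in PR2, with a median of 0.62. VIM, the intermediate filament of mesenchymal cells, had 2.05, 4.24 and 2.21 FPKM in PR2, against 62.3, 22.2 and 13.999 FPKM in PR1, and 5.12, 1.93 and 1.64 FPKM in parental cells (PR2 minus PR1 −2.92 ± 0.50 (SE), limma adjusted p = 0.00306). PR1 was thus the line with raised VIM, and the PR1 A library was the highest. CDH11, a cadherin of mesenchymal cells, had 0.349, 0.742 and 0.787 FPKM in PR2, against 12.3, 8.85 and 7.12 FPKM in PR1 (difference −2.66, limma adjusted p = 0.000331), and S100A4 was the third member lower. CDH2, N-cadherin, went the other way, with 11.6, 7.39 and 6.49 FPKM in PR2, against 3.71, 0.981 and 0.745 FPKM in PR1 (difference 1.87 ± 0.39 (SE), limma adjusted p = 0.00859). COL6A2, a collagen VI chain, had 3.12, 7.87 and 4.81 FPKM in PR2, against 0.246, 0.223 and 0.10049 FPKM in PR1 (difference 2.33, limma adjusted p = 0.000406). FN1, fibronectin, had 78.7, 41.8 and 62.0 FPKM in PR2, against 26.3, 8.51 and 16.2 FPKM in PR1 (difference 1.86, limma adjusted p = 0.0338), a call lost without PR2 A, PR2 C, PR1 B or PR1 C (limma adjusted p no higher than 0.11).

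Epithelial genes changed in equal numbers, 4 higher and 4 lower of 29 tested (27.6% called, against 19.9% of all tested rows). Without PR2 C or PR1 C 2 were higher, without any single PR2 library 2 were lower, and without PR1 B or PR1 C 1 was lower. CDH1, E-cadherin, had 85.7, 97.6 and 102 FPKM in PR2, against 80.048, 96.9 and 113 FPKM in PR1 (difference −0.01, limma adjusted p = 0.979), and EPCAM had 385, 369 and 377 FPKM in PR2, against 426, 369 and 344 FPKM in PR1 (difference −0.0032, limma adjusted p = 0.992). The libraries overlapped for both. DSP, the desmosomal plakin, was higher by 1.40 (limma adjusted p = 0.0123). The 12 fibroblast markers together summed to 18.7 to 26.4 FPKM in PR2, against 6.84 to 9.65 FPKM in PR1. Most of that sum was FBLN1, a fibulin, with 8.61, 14.4 and 15.1 FPKM in PR2, against 0.514, 0.606 and 0.601 FPKM in PR1, and COL1A1, with 9.89, 10.038 and 9.05 FPKM in PR2, against 5.99, 8.42 and 5.95 FPKM in PR1. DPT was listed at 0 in all 9 libraries, and COL1A2, COL3A1, DCN and PDGFRB were below 0.03 FPKM in each PR2 and PR1 library.

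Of 34 tested matrix and adhesion genes (laminins, collagens, integrins and matricellular genes), 15 were higher and 1 lower in PR2 and 18 did not pass, with a median of 0.58. FBLN1 had a difference of 3.08 ± 0.24 (SE) (limma adjusted p = 3.6e-05). COL4A1, a chain of basement membrane collagen, had 8.29, 8.61 and 10.9 FPKM in PR2, against 1.76, 1.22 and 1.14 FPKM in PR1, and 0.598, 0.271 and 0.276 FPKM in parental cells (PR2 minus PR1 2.12 ± 0.17 (SE), limma adjusted p = 3.6e-05). THBS1, thrombospondin, had 244, 187 and 246 FPKM in PR2, against 63.8, 46.8 and 62.8 FPKM in PR1 (difference 1.95, limma adjusted p = 0.0386), a call lost without any single PR2 or PR1 library (limma adjusted p no higher than 0.10). Integrins among the higher members, named after their values were seen, were ITGA3 (1.44), ITGB8 (1.04), ITGB4 (1.02) and ITGB1 (0.96), while ITGA2 (0.16), ITGA5 (−0.14) and ITGB5 (−0.13) did not pass. The member lower was LAMB2 (−0.80, limma adjusted p = 0.0089). ITGA3 and ITGB4 lie on chromosome 17.

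TGF-beta and BMP targets were higher in 12 and lower in 3 of 30 tested cases, with a median of 0.72. FSTL1, a secreted follistatin-like protein, had 29.9, 36.1 and 32.9 FPKM in PR2, against 6.62, 5.67 and 5.95 FPKM in PR1 (difference 2.26 ± 0.24 (SE), limma adjusted p = 0.000232). ID2, an inhibitor of helix-loop-helix factors, had 57.3, 38.6 and 38.3 FPKM in PR2, against 10.2, 6.25 and 8.49 FPKM in PR1 (difference 2.29, limma adjusted p = 0.00353). TGFB1, a ligand, and PMEPA1, a feedback inhibitor, both named after their values were seen, were higher by 1.72 and 1.60 (limma adjusted p = 0.000439 and 0.00705). CTGF, a matricellular protein, was lower, with 6.80, 13.9 and 35.1 FPKM in PR2, against 88.9, 70.0 and 234 FPKM in PR1 (difference −2.83, limma adjusted p = 0.0227). TGFBR2, a receptor of the pathway, and LTBP3 were the other lower members, at −0.88 and −1.66 (limma adjusted p = 0.0424 and 0.0274). Without PR2 A or PR1 C none of these 3 was called lower, without PR2 B or PR1 B 1 was.

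Actin-binding and contractile genes were higher in 13 and lower in 2 of 36 tested cases, with a median of 0.52. MYLK, the kinase of myosin light chains, had 6.12, 11.9 and 10.9 FPKM in PR2, against 0.892, 0.703 and 0.693 FPKM in PR1 (difference 2.55 ± 0.22 (SE), limma adjusted p = 7.4e-05), alongside MYL9. CSRP2, a LIM protein of smooth muscle, had 4.19, 6.42 and 5.26 FPKM in PR2, against 1.89, 1.18 and 0.738 FPKM in PR1 (difference 1.49, limma adjusted p = 0.00843), and the filamin FLNC was higher by 2.32 (limma adjusted p = 0.0155), a call lost without PR1 B or PR1 C (limma adjusted p = 0.054 and 0.061). The 2 lower members were the LIM-domain genes CRIP2 and CRIP1, at −1.62 and −1.24 (limma adjusted p = 0.00121 and 0.0233). CRIP1 lost its call without PR2 B, PR2 C, PR1 A or PR1 B (limma adjusted p no higher than 0.069). Without PR1 B 6 members were higher, and without PR1 C 7 were.

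Of 30 tested YAP and TEAD targets and Hippo genes 6 were higher and 2 lower (26.7%, against 19.9% of all tested rows). With the block in a fit of the 6 libraries alone 10 were higher. VGLL3, a TEAD cofactor, had 2.13, 3.41 and 5.07 FPKM in PR2, against 0.294, 0.380 and 0.265 FPKM in PR1 (difference 1.74, limma adjusted p = 0.000767). AMOTL2, WWC1 and CRIM1 were higher by 1.19, 1.12 and 1.13 (limma adjusted p = 0.00655, 0.00187 and 0.00366). NT5E, the ectonucleotidase CD73, was lower, with 49.6, 42.5 and 60.6 FPKM in PR2, against 126, 153 and 125 FPKM in PR1 (difference −1.39, limma adjusted p = 0.00118), as was CTGF. The classical targets ANKRD1 (0.37) and CYR61 (0.18) did not pass.

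Of 17 tested kallikreins, membrane serine proteases and their inhibitors, 7 were higher and 2 lower in PR2, with a median of 0.83. KLK10 had 37.2, 61.3 and 56.9 FPKM in PR2, against 9.16, 2.52 and 2.05 FPKM in PR1, and 109, 86.7 and 21.4 FPKM in parental cells (PR2 minus PR1 3.43 ± 0.60 (SE), limma adjusted p = 0.00343). KLK6 had 9.73, 36.1 and 35.0 FPKM in PR2, against 2.95, 2.16 and 2.57 FPKM in PR1, and 44.4, 13.4 and 12.6 FPKM in parental cells (PR2 minus PR1 2.78, limma adjusted p = 0.0057). SERPINA1, alpha-1 antitrypsin, had 16.2, 53.2 and 54.6 FPKM in PR2, against 3.46, 3.73 and 3.05 FPKM in PR1, and 57.4, 76.7 and 97.0 FPKM in parental cells (PR2 minus PR1 3.08 ± 0.40 (SE), limma adjusted p = 0.000658). The PR2 libraries of KLK10 lay within the parental range, and those of SERPINA1 below it. PR2 A was the lowest PR2 library for KLK5, KLK6, KLK10 and SERPINA1. Kallikreins lie together in 1 gene cluster and are similar in sequence, so reads may be split between them. TMPRSS2, a membrane serine protease of airway epithelium, was lower, with 0.145, 0.472 and 0.274 FPKM in PR2, against 4.86, 16.6 and 11.6 FPKM in PR1 (difference −3.08 ± 0.34 (SE), limma adjusted p = 0.000281). The tissue plasminogen activator PLAT was lower, at −2.55 (limma adjusted p = 0.0246) and −1.56 without PR2 A. Its call was lost without PR1 B or PR1 C (limma adjusted p = 0.079 and 0.060). With the block 5 members were lower.

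Interferon-stimulated genes are induced when interferon-activated transcription factors bind a short element in their promoters, the interferon-stimulated response element. Its core, taken as GAAA, any 2 bases and GAAA again, was searched on both strands in the 250 bases before the start of each gene in RefSeq (GRCh38.p14). It was found for 1014 of 27305 genes (3.71%) and for 21 of the 32 tested members of the interferon list that the table held (65.6%). Of the members called higher, 10 of 15 held it, of those called lower 2 of 2, and of those not called 9 of 15. The stretches below are 80 bases each, 5′ to 3′ on the strand of the gene, with the core (or, for the other strand, TTTC, 2 bases and TTTC) in capitals, for 5 members that were higher and 1 that was lower in PR2. They are shown because the same core stands, in 1 to 3 copies, in genes that moved in opposite directions.
IFI6 (chr1:27672273-27672352, minus strand): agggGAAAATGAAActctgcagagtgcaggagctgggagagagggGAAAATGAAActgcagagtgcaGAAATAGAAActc
IFI27 (chr14:94110599-94110678, plus strand): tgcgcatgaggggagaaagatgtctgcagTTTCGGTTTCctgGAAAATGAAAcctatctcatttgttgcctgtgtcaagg
ISG15 (chr1:1013352-1013431, plus strand): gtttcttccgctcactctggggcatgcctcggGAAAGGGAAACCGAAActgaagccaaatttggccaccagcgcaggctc
IFIT1 (chr10:89392478-89392557, plus strand): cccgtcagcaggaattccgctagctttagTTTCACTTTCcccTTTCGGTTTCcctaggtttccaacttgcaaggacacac
GBP1 (chr1:89065291-89065370, minus strand): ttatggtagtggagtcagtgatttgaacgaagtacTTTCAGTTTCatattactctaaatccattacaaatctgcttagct
BST2 (chr19:17405713-17405792, minus strand): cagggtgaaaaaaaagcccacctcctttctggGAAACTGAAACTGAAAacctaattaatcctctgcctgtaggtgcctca

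Of 43 tested interferon-stimulated genes and regulators, 19 were higher and 2 lower in PR2, with a median of 0.53. IFI6, whose stretch holds 3 cores, had 31.9, 46.8 and 36.6 FPKM in PR2, against 2.5983, 4.25 and 3.80 FPKM in PR1, and 31.7, 16.5 and 20.5 FPKM in parental cells (PR2 minus PR1 3.12 ± 0.25 (SE), limma adjusted p = 4.1e-05). IFI27 had 40.003, 103 and 95.8 FPKM in PR2, against 10.4, 16.4 and 9.66 FPKM in PR1, and 131, 63.7 and 133 FPKM in parental cells (PR2 minus PR1 2.54 ± 0.39 (SE), limma adjusted p = 0.00185). MX1, an antiviral GTPase, had 4.70, 7.33 and 6.61 FPKM in PR2, against 0.522, 1.16 and 0.609 FPKM in PR1, and 8.72, 7.24 and 9.24 FPKM in parental cells (PR2 minus PR1 2.03, limma adjusted p = 0.000126). For IFI6, IFI27 and MX1 every PR1 library was below every PR2 and every parental library. IFI35, on chromosome 17, had 21.5, 25.9 and 25.6 FPKM in PR2, against 2.12, 2.39 and 2.09 FPKM in PR1 (difference 2.98 ± 0.13 (SE), limma adjusted p = 2.4e-06).

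Further members, named after their values were seen, were ISG15, with 69.4, 91.7 and 73.2 FPKM in PR2, against 50.5, 33.6 and 27.8 FPKM in PR1 (difference 1.08, limma adjusted p = 0.0108), and IFIT1, with 1.75, 2.05 and 1.96 FPKM in PR2, against 1.06, 0.931 and 1.03 FPKM in PR1 (difference 0.54, limma adjusted p = 0.0227). GBP1 had 3.16, 5.83 and 6.15 FPKM in PR2, against 1.34, 1.91 and 2.5963 FPKM in PR1 (difference 1.02, limma adjusted p = 0.0487, and 0.0529 with the block). IRF1, a transcription factor of the response, was higher by 0.61 (limma adjusted p = 0.0198), while STAT2 (0.53) passed only with the block (limma adjusted p = 0.048, against 0.177 without it) and OAS1 (−0.23) and USP18 (−0.18) did not pass. BST2, whose stretch holds 2 cores, was lower, with 74.1, 119 and 93.4 FPKM in PR2, against 163, 168 and 149.6 FPKM in PR1 (difference −0.77, limma adjusted p = 0.0242), and the call was lost without PR2 A, PR2 C or any single PR1 library. IFITM3 was lower, at −0.96 (limma adjusted p = 0.0472) and −0.62 without PR2 A, and its call was lost under 12 alternatives. Without PR2 C or PR1 B, 11 members were higher, as with the filter at 5 FPKM, and without any single PR2 or PR1 library other than PR2 B no member was lower.

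**Figure D4:**
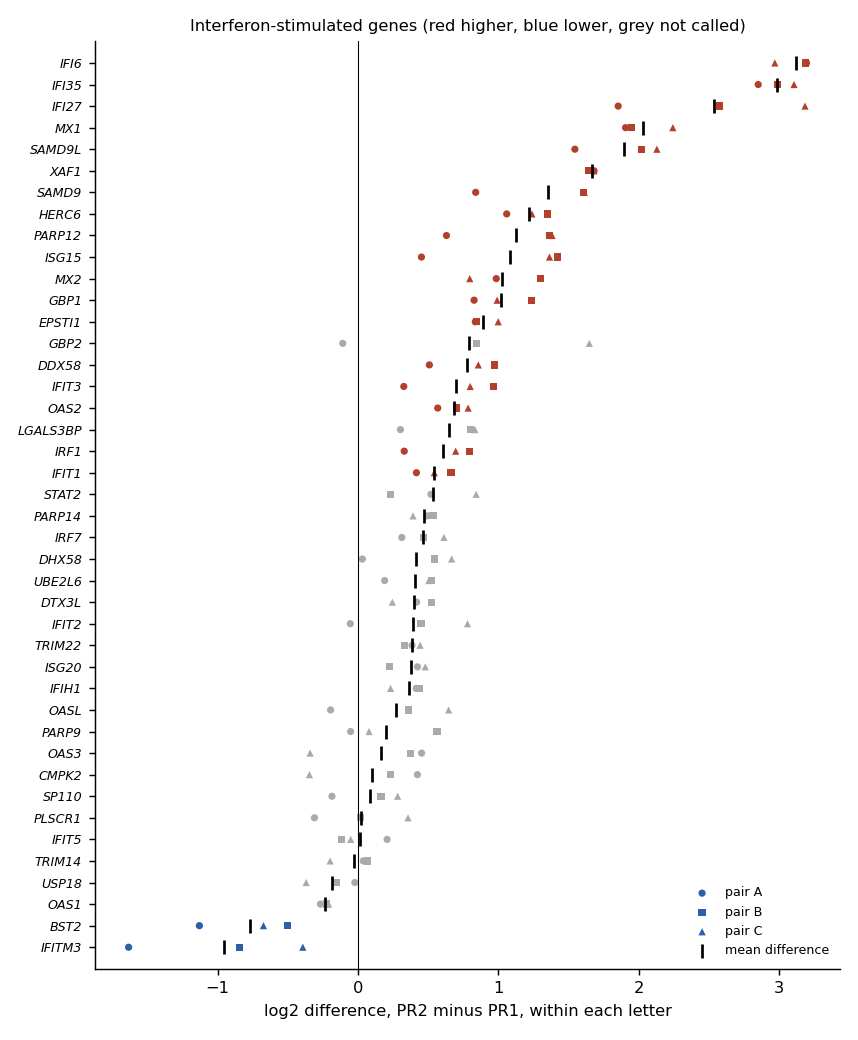
Log2 difference (PR2 minus PR1) of 42 of the 43 tested interferon-stimulated genes within each lettered pair (circle A, square B, triangle C) and the mean difference (bar), with members called higher in red (18 of the 19), called lower in blue and not called in grey. The red genes run from 0.54 (IFIT1) to 3.12 (IFI6), and the 2 blue genes are BST2 (−0.77) and IFITM3 (−0.96).

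Antigen presentation genes were higher in 4 and lower in none of 12 tested cases by limma, with 2 higher without PR2 C or PR1 B. With the block 1 was lower. At an unadjusted p of 0.05, which at least 19.9% of all tested rows pass, 5 were higher and 2 lower. CD74, the MHC class II invariant chain, had 40.9, 67.7 and 48.9 FPKM in PR2, against 2.83, 9.88 and 8.96 FPKM in PR1, and 208, 284 and 253 FPKM in parental cells (PR2 minus PR1 2.81 ± 0.36 (SE), limma adjusted p = 0.000639). NLRC5, the activator of class I genes, had 4.70, 5.72 and 8.43 FPKM in PR2, against 3.05, 2.11 and 3.33 FPKM in PR1 (difference 0.91, limma adjusted p = 0.0118). B2M, the light chain of class I, was higher by 0.86 (limma adjusted p = 0.0278), and ERAP1, a peptide-trimming enzyme, by 0.77 (limma adjusted p = 0.0136). B2M lost its call without PR2 B, PR2 C or any single PR1 library (limma adjusted p no higher than 0.11), and ERAP1 without PR2 C or PR1 B (limma adjusted p = 0.053 and 0.054).

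Placed along the genome, the differences were not even, an observation made after the data were seen. Of 11840 tested rows placed on a chromosome by symbol, 733 lay on chromosome 17, and 335 of those (45.7%) were called higher and 14 (1.91%) lower in PR2. On the other chromosomes 972 of 11107 rows (8.75%) were called higher. The median difference on chromosome 17 was 0.60, positive in 658 of 733 rows, and it was 0.59 in the A libraries, 0.64 in the B libraries and 0.60 in the C libraries. The median of the rows elsewhere was −0.02, and the next highest was 0.22 on chromosome 8. With the letter as a block 475 of the rows on chromosome 17 were higher, and without PR2 C 216 were.

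The difference ran along the whole of chromosome 17 in blocks of 25 neighbouring rows. Its 29 blocks had medians between 0.42 and 0.75, and 20 of them reached 0.5, out of 24 such blocks among all 464. Set beside parental cells, the median of chromosome 17 was 0.25 for PR2 and −0.40 for PR1. PR1 blocks 1 to 8, from RPH3AL to KSR1, lay between −0.10 and 0.19 against parental cells, and the later blocks, from LGALS9 to METRNL, between −0.87 and −0.23. The PR2 blocks were highest at the start, 0.64 in block 2, and −0.27 in the last block. Both series use the same parental libraries.

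**Figure D5:**
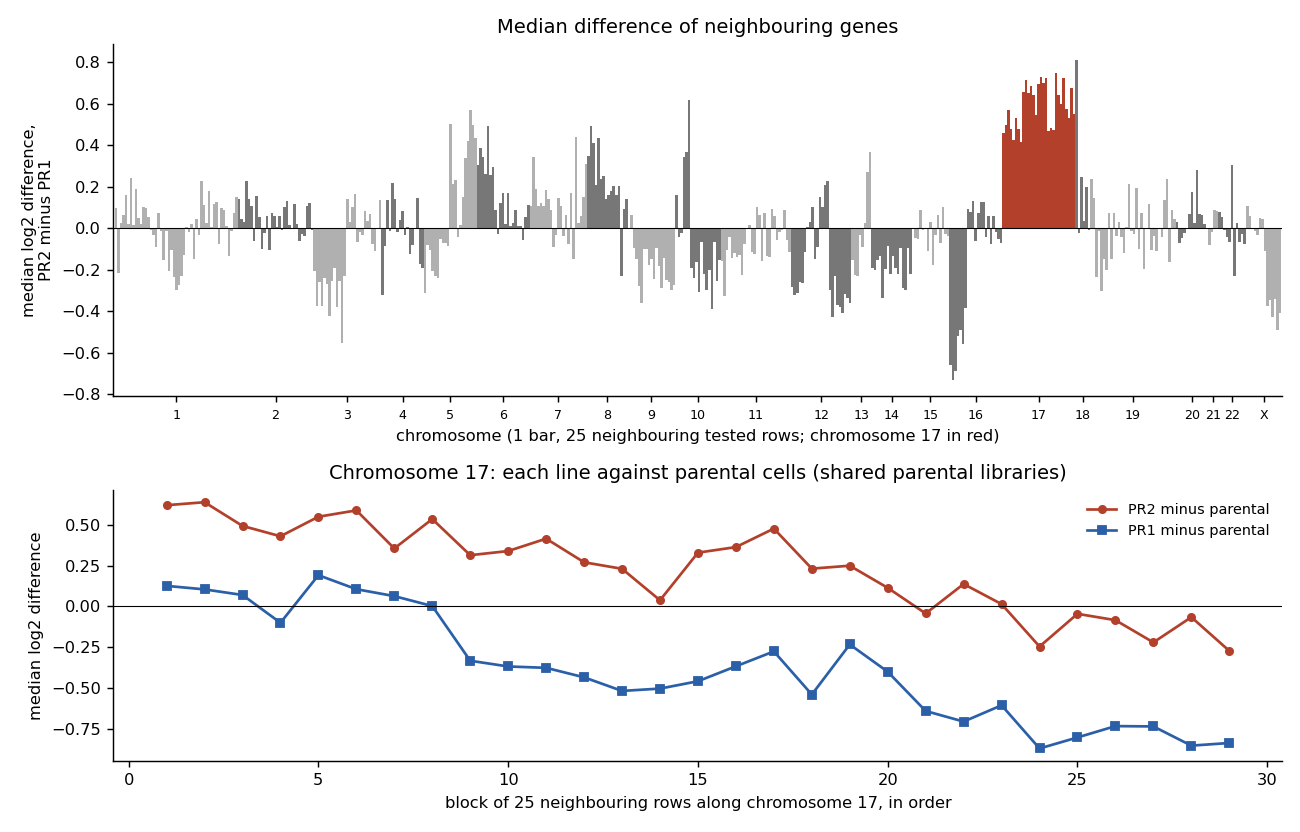
Top, median log2 difference (PR2 minus PR1) of blocks of 25 neighbouring tested rows in chromosome order, with chromosome 17 in red; all its 29 blocks lie between 0.42 and 0.75. Bottom, medians of the same blocks of chromosome 17 for PR2 minus parental (red circles) and PR1 minus parental (blue squares), with PR2 above PR1 in every block.

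The genes that led on chromosome 17, taken by size after the data were seen, included TIMP2, an inhibitor of metalloproteases, with 176 ± 49.2 FPKM in PR2 and 20.1 ± 4.21 FPKM in PR1 (SD, n = 3; difference 3.04 ± 0.30 (SE), limma adjusted p = 0.000152). LGALS9, galectin-9, had 135 ± 74.4 FPKM in PR2 and 20.5 ± 6.36 FPKM in PR1 (SD, n = 3), and 135 ± 19.4 FPKM in parental cells (PR2 minus PR1 2.49, limma adjusted p = 0.00353). KRT17, a keratin of basal cells, had 114 ± 45.1 FPKM in PR2 and 18.5 ± 3.64 FPKM in PR1 (SD, n = 3; difference 2.49, limma adjusted p = 0.00585), and the caveolar protein gene PTRF had 127 ± 15.9 FPKM in PR2 and 25.1 ± 17.8 FPKM in PR1 (SD, n = 3; difference 2.49, limma adjusted p = 0.0102). Broadly expressed genes were also higher, by less, such as UBB, a ubiquitin gene (0.65), SUMO2 (0.60) and the histone gene H3F3B (0.95), all called (limma adjusted p = 0.0179, 0.0331 and 0.0069). ETV4 and ALDH3A1 ran against the chromosome, at −2.56 and −1.51 (limma adjusted p = 0.000484 and 0.000905), and so did FOXJ1, the factor of ciliated cells, at −1.99 (limma adjusted p = 0.0104).

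Shorter stretches of other chromosomes were shifted as well. The first 6 of the 21 blocks of chromosome 16, from POLR3K to LITAF, had medians of −0.49 to −0.73, and against parental cells they lay between −0.21 and 0.04 in PR2 and between 0.39 and 0.61 in PR1. The first block of chromosome 18, from USP14 to TWSG1, had the highest median of all, 0.81, with 1.06 for PR2 and 0.22 for PR1 against parental cells. On chromosome 5, blocks 19 to 21, from SLU7 to TRIM52-AS1, had medians of 0.43 to 0.57, and PR1 lay at −0.65 to −0.94 against parental cells there. Chromosome 17 held few called members of the larger lists. Of the members called higher, 2 of the 19 interferon genes, 2 of the 15 matrix genes and 1 of the 13 actin genes lay on it. Of the 13 lower ERK output genes 1 did. It held a larger part of some short lists. These were 2 of the 4 higher epithelial genes, 2 of the 4 higher chemokines and cytokines and 2 of the 3 higher RAS cascade genes. The ERK output, keratin and glycolysis lists each had 1 of their 2 higher members on it. With the rows of chromosome 17 left out of the fit, 1921 rows passed, 933 higher and 988 lower. In that fit 2 epithelial genes, 2 chemokines and cytokines and 1 RAS cascade gene were called higher.

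WNT and NOTCH genes moved both ways. Of 28 tested members 6 were higher and 8 lower in PR2, and with the block 10 were higher. Of all tested rows 11% were higher and 8.92% lower, and with the block 17.1% were higher. Besides WNT10A, the receptor FZD2 had 10.9, 24.2 and 24.4 FPKM in PR2, against 5.89, 5.85 and 4.31 FPKM in PR1 (difference 1.64, limma adjusted p = 0.00267) and NOTCH3 had 5.10, 5.89 and 4.29 FPKM in PR2, against 1.34, 1.89 and 1.57 FPKM in PR1, and 13.9, 12.7 and 11.8 FPKM in parental cells (PR2 minus PR1 1.22, limma adjusted p = 0.00053). The NOTCH ligand DLL1 had 0.426, 0.266 and 0.268 FPKM in PR2, against 2.64, 2.34 and 2.58 FPKM in PR1 (difference −1.42, limma adjusted p = 5.8e-05), and the receptors FZD8 and FZD5 were lower, at −1.16 and −0.83 (limma adjusted p = 0.00776 and 0.00823). The number lower was 3 without PR2 B, 5 without PR2 C or PR1 B and 4 without PR1 C.

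Chemokines and cytokines were split as well, 4 higher and 5 lower of 21 tested, against 11% and 8.92% of all tested rows. IL32 had 79.4, 109.9 and 63.5 FPKM in PR2, against 27.0, 7.65 and 3.60 FPKM in PR1 (difference 3.003 ± 0.60 (SE), limma adjusted p = 0.00705), with PR1 A far above PR1 B and C. IL23A, a subunit of interleukin-23, was higher by 1.70 (limma adjusted p = 0.00163). CX3CL1, fractalkine, had 0.377, 0.418 and 0.240 FPKM in PR2, against 4.72, 13.7 and 10.1 FPKM in PR1 (difference −2.86, limma adjusted p = 0.000245), and CCL28, a mucosal chemokine, had 2.56, 4.24 and 6.61 FPKM in PR2, against 17.9, 22.8 and 25.5 FPKM in PR1 (difference −2.13, limma adjusted p = 0.000485). The neutrophil chemokines CXCL1 and CXCL8 were lower, at −1.48 and −1.42 (limma adjusted p = 0.000368 and 0.00958). Without PR2 B 2 members were higher.

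No proliferation gene passed. Of 29 tested DNA replication and mitosis genes, limma called 0, with 0 higher and 1 lower at an unadjusted p of 0.05 and a median of −0.21. With the block 2 were higher and 3 lower, and without PR1 B 5 were lower. CDKN1A, the CDK inhibitor p21, had 21.8, 14.4 and 24.6 FPKM in PR2, against 4.66, 2.81 and 5.56 FPKM in PR1, and 16.6, 10.3 and 12.4 FPKM in parental cells (PR2 minus PR1 2.00 ± 0.26 (SE), limma adjusted p = 0.000739). Of 21 tested genes that control CDKs or respond to p53, 2 were higher and 2 lower (19%, against 19.9% of all tested rows). With the block 4 were lower, against 14.5% of all tested rows. The p53 target SESN1 was lower, at −1.28 and ZMAT3 higher by 0.82 (limma adjusted p = 0.00143 and 0.00505). Of 15 tested BCL2 family genes 2 were higher (13.3%, against 11% of all tested rows), PMAIP1 (NOXA) by 1.07 and BOK by 1.20 (limma adjusted p = 0.0046 and 0.00109).

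In the metabolic lists 12.5% to 20% of the tested members were called, against 19.9% of all tested rows. With the block 31.5% of all tested rows were called, 17.1% higher and 14.5% lower. Of 28 glycolysis and hypoxia genes 2 were higher and 2 lower, and with the block 4 and 6, led by the peptide hormone gene ADM (1.92) and the hexokinase HK1 (−1.06, limma adjusted p = 0.000173 and 0.00344). Of 32 oxidative phosphorylation subunits limma called 4 lower and 0 higher, and with the block 9 lower. At an unadjusted p of 0.05, which at least 19.9% of all tested rows pass, 9 were lower and 0 higher. The called members included NDUFB10, with 191, 159 and 158 FPKM in PR2, against 406, 332 and 349 FPKM in PR1 (difference −1.09, limma adjusted p = 0.000875). Of 25 NRF2 and glutathione genes 1 was higher, HMOX1, with 13.6, 16.1 and 15.1 FPKM in PR2, against 5.10, 5.97 and 7.38 FPKM in PR1 (difference 1.17, limma adjusted p = 0.00106), and 4 were lower. Without PR2 B, PR2 C, PR1 B or PR1 C, 1 of these was lower, and with the block 2 members of the list were higher. Of 21 drug transport and detoxifying genes 2 were higher and 2 lower, with the block 6 were higher, and the efflux pump ABCG2 had 1.44, 0.593 and 0.809 FPKM in PR2, against 7.81, 10.6 and 13.019 FPKM in PR1, and 3.0038, 2.25 and 2.30 FPKM in parental cells (PR2 minus PR1 −2.56 ± 0.21 (SE), limma adjusted p = 5.5e-05). The ribosomal proteins RPL8 and RPL30 had group means within 10% of each other and did not pass (limma adjusted p = 0.774 and 0.97).

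A few genes were listed at 0 in every library of 1 line. ACER3, an alkaline ceramidase, was listed at 0 throughout PR2, and PR1 had 2.10, 3.13 and 2.66 FPKM. The same held for LRRC31, with 2.26, 6.18 and 6.36 FPKM in PR1. FGL1, a secreted fibrinogen-like protein, and SHISA3 were also at 0 in PR2. PR1 had 1.19, 5.36 and 9.72 FPKM of FGL1 and 2.18, 1.63 and 2.18 FPKM of SHISA3. The pseudogene BMS1P17 was at 1.04, 1.46 and 1.45 FPKM in PR2 and listed at 0 in the 3 PR1 libraries. A listed 0 can be a failed estimate in this table, so no fold change is given.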

How the data were processed

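RNA from 9 libraries of LC-2/ad cells and 2 derivatives was sequenced, per the labels' protocols from a TruSeq kit. Per the submitters' processing notes the tools were Cuffdiff (2.2.1), Cufflinks (2.2.1) and TopHat2 (2.0.14), with hg19 and GRCh37 given as builds. The deposited table holds 1 value per row and library, taken as FPKM. The header names no unit, and FPKM is an inference from the tools the authors used and from the values, which keep no absolute depth. Of 24069 rows, 704 combine several genes. Neither the annotation nor strand handling is stated, so reads of overlapping genes cannot be told apart.

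The test took rows that reached 1 FPKM in 3 or more libraries of the 9, on log2(FPKM + 1), with a pseudocount of 1, in R 4.3.3 with limma 3.58.1 (1 mean per group over all 9 libraries, empirical Bayes with an intensity trend, two-sided, Benjamini-Hochberg over 12011 rows). Called means an adjusted p under 0.05. The fit was tested on simulated data. Same-letter libraries of PR2 and PR1 deviated together (r = 0.527, 0.544 and 0.254 across genes for A, B and C). Between different letters r ran from −0.56 to 0.244. The highest of these, PR2 C with PR1 B, was close to the value of the C pair, so pairing by letter is not clear for C. The letters were taken as pairs in the block. The blocked value is given where it changes a call or moves a count by over 1.5 times.

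The members and the lists were chosen with earlier results of these data known, and list counts are descriptions, not tests. List counts stand beside 11% of all tested rows called higher and 8.92% called lower. With the block these shares are 17.1% and 14.5%. For counts at an unadjusted p no share of all tested rows is given. It is at least the 19.9% called after adjustment, so these counts alone show no shift of a list. Named genes are the 10 largest differences per direction among rows called at 2-fold whose libraries do not overlap and whose higher group averages at least 5 FPKM (non-coding and unnamed loci left out by symbol), the 5 most abundant per direction by the same criteria, up to 4 called members per list and direction, a fixed set around RET and its pathway, rows listed at 0 in 1 line, and 3 abundant list members not called with means within 10%. Rows were placed on chromosomes and ordered by symbol with a GRCh38 annotation, so no coordinates of the authors' build are given. Promoter sequences are from RefSeq (GRCh38.p14). Alternatives were another pseudocount and filters, quantile normalization, a fit of 6 libraries, the block, no trend, leaving out each library or the A libraries, and leaving out chromosome 17 (added after the data were seen). Genes outside the rule, named after their values were seen, were run in the fit and the block only. Some genes that the rule selects are not reported here.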

Additional observations from a re-analysis of the deposited data

How the results depend on the processing

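With the replicate block, which pairs the letters, 3789 rows differed, 2053 higher and 1736 lower, and with the block in a fit of the 6 PR2 and PR1 libraries 4473, 2367 and 2106, with 521 higher rows on chromosome 17. The filter at 5 FPKM gave 1573 rows, 836 higher, 598 at 2-fold and 319 at 2-fold higher, where fewer rows were tested. Leaving out 1 library at a time, 1420 to 2446 rows differed, 773 to 1372 higher and 630 to 1074 lower, and the chromosome 17 median was 0.59 to 0.64 with 216 to 346 rows higher. That median was 0.68 at a pseudocount of 0.1. Of 159 named genes that were called, 108 stayed called under every alternative that tested them and 51 lost the call under at least 1 of 19. The genes that changed sign were not called and lay near 0. Quantile normalization gave 0.046 for CDH1, 0.096 for EPCAM and 0.034 for RPL8, and leaving out the A libraries gave 0.067 for EPCAM and 0.0051 for RPL8. Leaving out 1 library gave −0.14 to 0.11 for CDH1, −0.071 to 0.082 for EPCAM and −0.12 to 0.15 for RPL30. The cause of these shifts was not tested. With 3 libraries per line and an unknown read depth, small differences of low genes were not resolved.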

Other observations

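Of the 2 neuroendocrine markers above the filter 1 was higher in PR2. This was UCHL1, a neuronal deubiquitinase, which had 13.5, 9.13 and 6.28 FPKM in PR2, against 0.630, 0.540 and 0.301 FPKM in PR1 (log2 difference 2.78, limma adjusted p = 0.00011). The 14 markers together summed to 10.7 to 22.0 FPKM in PR2 and 3.80 to 4.97 FPKM in PR1, and CHGA, INSM1, GRP and STMN2 were listed at 0 in the PR2 and PR1 libraries. Cholesterol synthesis genes were lower in 3 of 23 tested cases and higher in none by limma (13%, against 19.9% of all tested rows). Their median was −0.42, and with the block 6 were lower. At an unadjusted p of 0.05, which at least 19.9% of all tested rows pass, 7 were lower and 0 higher. Without PR2 B 1 was lower and without PR2 C 7 were. Among keratins and genes of stratified epithelium, 2 of 19 were higher and 3 lower (26.3% called, against 19.9% of all tested rows). With the block 8 were higher. LY6D, a surface protein of stratified epithelium, had 0.583, 0.520 and 0.636 FPKM in PR2, against 16.4, 3.73 and 4.69 FPKM in PR1 (log2 difference −2.30, limma adjusted p = 0.013).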
